A study of Mus musculus with 59 samples.

Results

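Pyy, the gene of peptide YY, and 32 other genes of neuropeptides and of the secretory granules that carry them were followed across mouse models of spinocerebellar ataxia type 3, a disease caused by an expanded polyglutamine tract in ataxin-3. The 33 members are rows of an expression table of 41227 genes from the pons, the brainstem region that lies under the cerebellum. Pyy was selected on its FPKM values, which were low in mice homozygous for a duplicated knock-in repeat, and the other members were chosen as a family, so the values of Pyy in those mice are a description. The members comprise 26 precursors of signalling peptides, 4 granins (Vgf, Scg2, Chga and Chgb), the prohormone convertases Pcsk1 and Pcsk2, and Pcsk1n, an inhibitor of Pcsk1.

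All mice were on a C57BL/6 background, and the libraries fall into 2 sets. The first set holds 3 wild-type libraries, 3 libraries of mice lacking ataxin-3 (ATXN3-KO) and 3 of mice homozygous for an Atxn3 allele with a duplicated repeat of 82 glutamines (dupKi-hom). The second set holds 6 wild-type libraries and 6 of mice heterozygous for that duplicated allele (dupKi-het), with 4 libraries each of mice heterozygous (Ki-het) or homozygous (Ki-hom) for a single repeat of 82 glutamines in Atxn3. It also holds 4 libraries each of mice hemizygous, by their titles, for a human ATXN3 transgene with 84 glutamines (YAC84Q-hemi) or 15 glutamines (YAC15Q-hemi). Age, the promoter of the transgenes and the number of founder lines are not given in the sources used here.

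Neuropeptides are cut from larger precursors inside dense-core granules, where convertases such as Pcsk1 and Pcsk2 cleave the precursor and granins help to load the granule. After release they act, mostly through G protein-coupled receptors, more slowly and over longer distances than fast transmitters. In the brainstem, peptide neurons take part in breathing, feeding, pain control and autonomic output, and each peptide is made by particular nuclei rather than by neurons in general. Peptide YY is a relative of neuropeptide Y best known as a gut hormone, and it is also made by small groups of brainstem neurons. In whole pons, fewer cells of a type and less RNA per cell cannot be told apart.

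The sequence just upstream of Pyy is shown because Pyy was the member chosen, and 6 further stretches are shown because they share one element. They come from RefSeq on GRCm38.p6, on the strand of the gene, 5′ to 3′. The Pyy stretch of 120 bases ends at the more upstream of 2 annotated starts (chr11:102107833-102107952, minus strand).
Pyy: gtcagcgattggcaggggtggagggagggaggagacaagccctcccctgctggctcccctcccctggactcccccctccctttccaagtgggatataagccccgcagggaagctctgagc

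The capitals below mark TGACGTCA, the palindromic cAMP response element that many peptide genes carry. Within 250 bases upstream of the start, on either strand, it was present in 6 of 27 members in the promoter table (22.2%) and in 478 of 27025 genes in all (1.77%). The stretches of 48 bases lie at chr16:23890865-23890912 (minus strand) for Sst, chr13:99900768-99900815 (minus) for Cartpt, chr5:31138912-31138959 (minus) for Ucn, chr1:79440067-79440114 (minus) for Scg2, chr2:132781550-132781597 (plus) for Chgb and chr13:75089759-75089806 (plus) for Pcsk1.
Sst: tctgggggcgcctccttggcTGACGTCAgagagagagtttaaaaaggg
Cartpt: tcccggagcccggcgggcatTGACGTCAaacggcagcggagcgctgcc
Ucn: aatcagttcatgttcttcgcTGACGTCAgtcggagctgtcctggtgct
Scg2: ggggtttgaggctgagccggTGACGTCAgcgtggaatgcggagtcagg
Chgb: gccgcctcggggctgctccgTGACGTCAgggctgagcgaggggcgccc
Pcsk1: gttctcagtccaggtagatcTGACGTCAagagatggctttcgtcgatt

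A match is a description of these letters, and the Pyy window held none. Calcb, Crh, Grp, Penk, Pnoc and Vgf had no entry in the promoter table.

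Expression was given as FPKM, the number of sequenced fragments scaled to transcript length and library size. Its sum over genes lay between 488351 and 695249 in libraries of the first set, and between 430083 and 560516 in those of the second. The first set came from males and the second from females (Xist at most 0.0176 FPKM in the first and at least 1.29 FPKM in the second), so the sets were tested separately. Atxn3 was at 0.186 to 0.335 FPKM in ATXN3-KO and at 5.44 to 14.1 FPKM in the other genotypes. The libraries were from brainstem by Hoxa2 (2.23 to 3.77 FPKM), the serotonergic gene Tph2 (8.96 to 44.1 FPKM) and the glycinergic transporter gene Slc6a5 (49.0 to 91.3 FPKM), with the pituitary hormone gene Prl at 0. Hoxb2, another brainstem gene, was at 4.76 to 7.81 FPKM in the first set but was listed at 0 in every library of the second. Genes of neighbouring regions varied between libraries. The caudal hindbrain gene Hoxb5 ranged from 2.86 to 26.1 FPKM and the cerebellar cortex gene Gabra6 from 0.224 to 19.6 FPKM. Ttr, a gene of the choroid plexus, ranged from 4.51 to 3125 FPKM and exceeded 1000 FPKM in 9 libraries. In the second set the library numbered 0 in each of the 6 genotypes stood apart from the others, and some results are given with and without these libraries.

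Granin and convertase-inhibitor genes led the members. In the second set Scg2 (secretogranin II) had the highest median, 209.8 FPKM (range 144 to 242, n = 28), followed by Chga (chromogranin A) at 173, Chgb (chromogranin B) at 149, Pcsk1n at 147, Sst (somatostatin) at 116 and Penk (the enkephalin precursor) at 115 FPKM. FPKM is scaled by length, so these levels can be compared between genes. Below them, Tac1 (substance P) was at 25.9, Calca (calcitonin gene-related peptide) at 18.1 and Cck (cholecystokinin) at 13.8 FPKM. Pyy had the lowest median of the members tested there, 1.17 FPKM. In each set 29 of the 33 members reached 1 FPKM in at least 3 libraries and were tested. The other 4, Avp, Oxt, Hcrt and Ucn (vasopressin, oxytocin, orexin and urocortin), peaked at 0.513, 0.303, 0.768 and 1.02 FPKM over both sets, and Oxt was listed at 0 in 21 of 28 libraries of the second set.

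**Figure D1:**
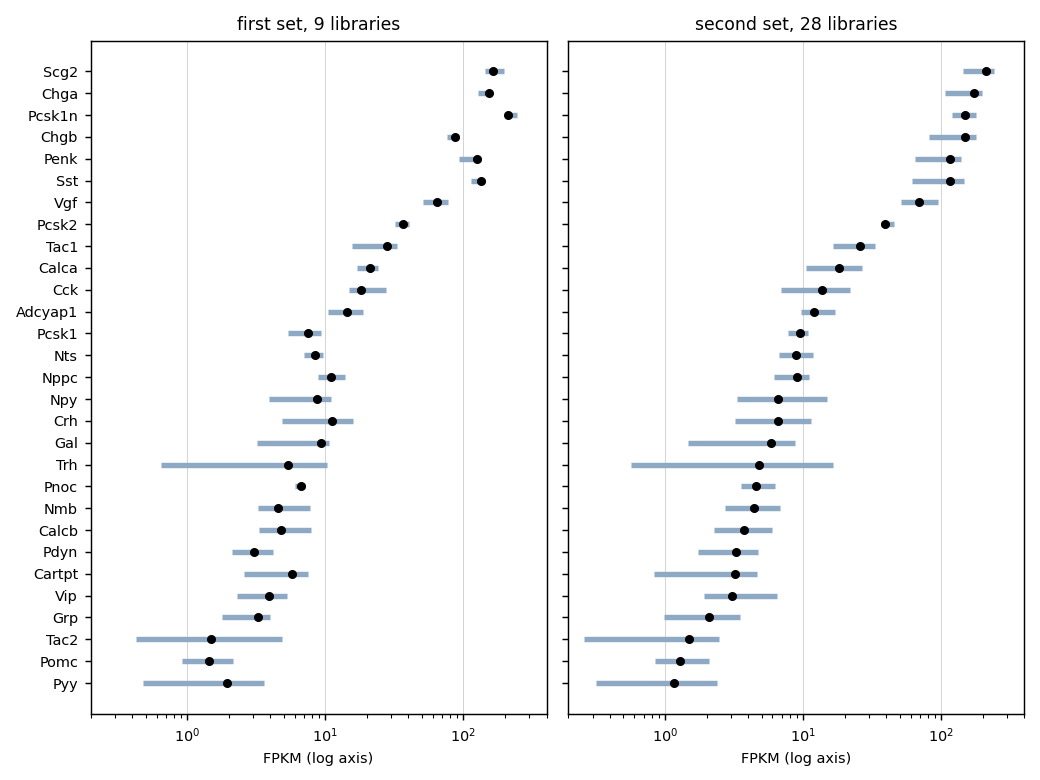
FPKM of the 29 members tested (log axis), with bars from the lowest to the highest library and dots at the median, in the first set (9 libraries) and the second (28 libraries). Levels span from 1.17 FPKM for Pyy to 209.8 FPKM for Scg2 (medians of the second set), and Trh has the longest bars.

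Members also differed in how much they varied between libraries. Trh, the precursor of thyrotropin-releasing hormone, ranged 16.0-fold in the first set and 29.1-fold in the second, from 0.563 to 16.4 FPKM. Tac2 (neurokinin B) ranged 11.4-fold and 9.56-fold and Pyy 7.51-fold and 7.47-fold. Pcsk2, by contrast, ranged 1.25-fold and 1.22-fold, from 36.9 to 45.2 FPKM in the second set.

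Pyy stood lowest in dupKi-hom. In the first set it was at 3.60, 2.29 and 1.93 FPKM in the wild-type libraries, at 2.36, 1.34 and 2.26 FPKM in ATXN3-KO and at 0.737, 0.479 and 0.501 FPKM in dupKi-hom. The 3 dupKi-hom libraries lay below the 6 others with no overlap. The mean was 0.573 ± 0.143 FPKM (SD, n = 3) in dupKi-hom, 2.61 ± 0.878 in wild-type and 1.99 ± 0.560 in ATXN3-KO, which put dupKi-hom lower by 1.17 and 0.91 on the log2(FPKM + 1) scale. These values chose the gene and carry no test. Pyy passed the expression filter in this set through the wild-type and ATXN3-KO libraries, since no dupKi-hom library reached 1 FPKM.

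The ATXN3-KO and wild-type libraries overlapped, with a log2 difference of -0.26 (95% interval -0.69 to 0.16, limma adjusted p = 0.874). The wild-type libraries of this comparison are those that chose the gene. Of the ATXN3-KO libraries, 0 and 2 were above 1000 FPKM of Ttr, and against the remaining library alone the difference was -0.60, a value from 1 library that is given with no test.

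Other genes differed between dupKi-hom and wild-type in the same libraries. The summed FPKM of 15 general neuron genes was 5446, 5464 and 5296 in dupKi-hom and 5680, 5897 and 5891 in wild-type, and 3 of the 15 were called lower (the neurofilament genes Nefl, Nefm and Nefh). It was 5362, 5379 and 5517 in ATXN3-KO, which also lay below wild-type. The summed FPKM of 16 brainstem regional genes was 157, 165 and 158 in dupKi-hom, 186, 196 and 183 in wild-type and 181.5, 184.2 and 178.3 in ATXN3-KO. Neither sum overlapped between dupKi-hom and wild-type. In dupKi-hom 8 of 12 astrocyte genes and 9 of 14 oligodendrocyte genes were called lower, where 1.15% of all genes were. The gene lists, here and below, were chosen with earlier results of these data known, so their counts are descriptions. The part of these genes in the Pyy values was not tested.

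**Figure D2:**
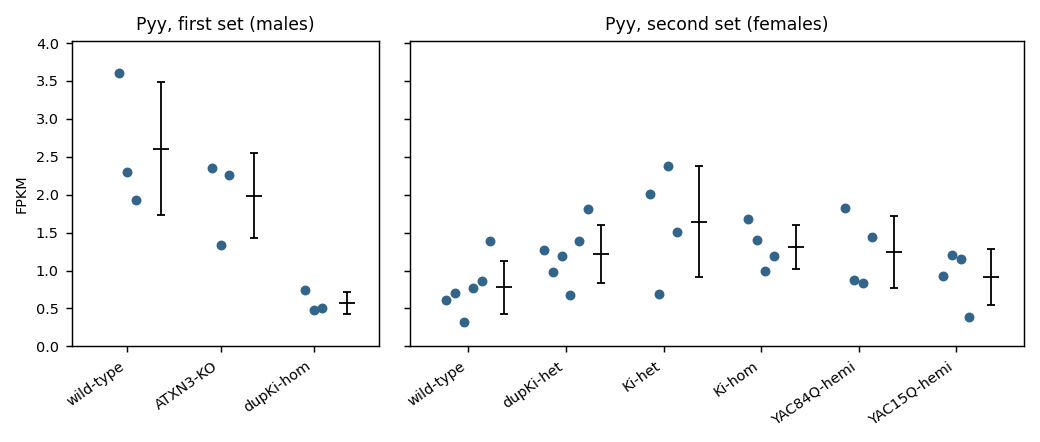
FPKM of Pyy in each library (dots, in the order of library number) with the mean and SD of each genotype beside them. The 3 dupKi-hom libraries sit between 0.479 and 0.737 FPKM, below the other libraries of the first set, while in the second set the 6 wild-type libraries have the lowest mean, 0.776 FPKM.

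In the second set Pyy was not lower than wild-type in any of the 5 models by mean. Wild-type libraries ranged from 0.318 through a median of 0.739 to 1.38 FPKM, and dupKi-het libraries from 0.683 through 1.23 to 1.81 FPKM. Ki-het was at 2.01, 0.693, 2.38 and 1.51 FPKM and Ki-hom at 1.67, 1.40, 0.997 and 1.19 FPKM. YAC84Q-hemi was at 1.83, 0.871, 0.841 and 1.44 FPKM and YAC15Q-hemi at 0.924, 1.20, 1.15 and 0.388 FPKM. Each model overlapped wild-type.

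None of these differences passed the test in the fit with genotype alone. The log2 difference of dupKi-het from wild-type was 0.33 (95% interval -0.01 to 0.67, limma adjusted p = 0.418). The difference was largest in Ki-het, 0.55 (0.17 to 0.93, unadjusted p = 0.0061, adjusted p = 0.267), where 3 of 4 libraries lay above every wild-type library. It was 0.40 in Ki-hom (adjusted p = 0.356), 0.34 in YAC84Q-hemi (0.793) and 0.11 in YAC15Q-hemi (adjusted p = 1). dupKi-het and Ki-het did not differ past the threshold either (log2 difference -0.22, interval -0.60 to 0.15, adjusted p = 0.480). Without the libraries numbered 0 the 5 differences from wild-type were 0.29, 0.45, 0.30, 0.20 and 0.08 in the same order, and adjusted p was 0.427 or more. By order of mean, YAC15Q-hemi (0.916 FPKM), dupKi-het (1.22), YAC84Q-hemi (1.25), Ki-hom (1.32) and Ki-het (1.65) followed wild-type, with SDs of 0.290 to 0.729 FPKM, and each step between neighbours was smaller than the larger SD of its pair.

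On chromosome 11 the 3 annotated protein-coding neighbours on each side of Pyy were Cd300lg, Mpp2 and Ppy and Nags, Tmem101 and Lsm12. Ppy encodes pancreatic polypeptide, the third peptide of the Pyy family, and averaged at most 0.0416 FPKM in any genotype. Mpp2 was at 18.0 FPKM in dupKi-hom and 14.8 in wild-type (log2 difference 0.27, limma adjusted p = 0.227), Tmem101 at 18.1 and 16.9 (adjusted p = 0.818) and Lsm12 at 19.2 FPKM in both (adjusted p = 0.994). Cd300lg and Nags did not pass the expression filter, and none of the 3 neighbours tested was called in any of the 10 comparisons.

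The 5 genes whose values followed Pyy most closely across the 28 libraries of the second set, after subtraction of genotype means, were E130309D14Rik (Pearson r = 0.72), Memo1 (0.65), Ndrg3 (0.63), Gm3239 (0.60) and BC055324 (0.60). They share libraries and scaling with Pyy, and in the 9 libraries of the first set r was 0.17 for E130309D14Rik, -0.39 for Memo1 and -0.35 for Ndrg3.

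Apart from Pyy, the dupKi-hom pons showed no member past the test against wild-type. Of 28 members, 0 were called by limma, where 1.64% of all genes tested were called (0.484% higher and 1.15% lower). At an unadjusted p under 0.05, 9 were higher and 2 lower (39.3% of the members, against 12.3% of all genes). Members lay above wild-type in 23 of 28 cases (82.1%, against 57.4% of all genes), with a median log2 difference of 0.20, beside 0.02 for all genes.

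Among granule genes, Scg2 was at 175, 184 and 198 FPKM in dupKi-hom and at 142, 165 and 161 in wild-type. Every dupKi-hom library was above every wild-type library, and the log2 difference was 0.25 (interval 0.09 to 0.41, limma adjusted p = 0.146). Pcsk1n, at 245, 236 and 236 against 206, 224 and 209 FPKM, likewise did not overlap (0.17, adjusted p = 0.193). Vgf, a granin gene induced by neurotrophins and activity, averaged 73.4 ± 3.90 against 61.7 ± 3.35 FPKM (0.25, adjusted p = 0.248). Chga was at 145, 153 and 148 FPKM in dupKi-hom and 156, 152 and 158 in wild-type, and Chgb at 88.5, 86.5 and 91.9 against 75.9, 85.9 and 92.4 FPKM. Both overlapped.

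Among peptide precursors, both calcitonin gene-related peptide genes were below wild-type in 3 of 3 dupKi-hom libraries. Calcb was at 4.11, 4.97 and 3.50 FPKM against 5.74, 7.89 and 7.60 FPKM (log2 difference -0.64, interval -0.96 to -0.31, limma adjusted p = 0.0672), and it was called without wild-type library 0 (-0.76, adjusted p = 0.04996). Calca averaged 18.1 ± 1.74 against 22.6 ± 1.45 FPKM (-0.31, adjusted p = 0.279). Calca and Calcb are close copies, so the split of shared reads between them is uncertain. Adcyap1, the gene of the VIP-related peptide PACAP, averaged 15.9 ± 2.58 against 11.9 ± 1.77 FPKM (0.39, adjusted p = 0.191) and Tac1 31.3 ± 2.69 against 21.6 ± 6.51 FPKM (0.55, adjusted p = 0.190).

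Sst was at 139, 145 and 134 FPKM in dupKi-hom and 119, 134 and 122 in wild-type, and Penk at 130, 135 and 110 against 93.3, 128 and 93.6 FPKM. The 3 dupKi-hom libraries lay above wild-type for Sst and overlapped it for Penk. In both genes, wild-type library 1 was the highest of its genotype. The same library led wild-type in Npy (3.91, 10.1 and 4.00 FPKM), Crh, the gene of corticotropin-releasing hormone (7.12, 14.0 and 4.87), Gal, the gene of galanin (5.08, 10.7 and 3.21), Cartpt, the precursor of the feeding-related peptide CART (3.99, 7.55 and 2.58) and Trh (0.834, 5.40 and 2.96). The summed FPKM of 13 caudal hindbrain Hox genes was also higher in that library, at 57.4 beside 17.9 and 24.2 in the other wild-type libraries, 71.05, 102 and 23.5 in ATXN3-KO and 72.2, 72.0 and 43.7 in dupKi-hom. Its part in the results was not tested. Without wild-type library 1, Npy (log2 difference 1.10, limma adjusted p = 0.0240), Gal (0.94, 0.0306) and Tac1 (0.76, 0.0305) were called higher in dupKi-hom.

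The knockout gave 0 called members of 29 against wild-type, where 0.0142% of all genes (2 genes) were called, and 6 members at an unadjusted p under 0.05 (20.7%, beside 6.46% of all genes). Calcb was again lower than wild-type in 3 of 3 libraries, at 4.74, 3.33 and 3.85 FPKM (log2 difference -0.70, interval -1.02 to -0.37, limma adjusted p = 0.5275), and it shares the wild-type libraries with the comparison above. Calcb in dupKi-hom and ATXN3-KO overlapped (0.06, adjusted p = 0.917). Scg2 was at 156, 162 and 172 FPKM in ATXN3-KO, Pcsk1n at 205, 200 and 208, Chga at 143, 127 and 156, Chgb at 86.2, 89.6 and 86.3, Sst at 136, 130 and 113 and Penk at 131, 125 and 105 FPKM. Each of these 6 overlapped wild-type.

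Between dupKi-hom and ATXN3-KO, 0 of the 28 members besides Pyy were called (1.24% of all genes, 0.555% higher and 0.69% lower), and 5 had an unadjusted p under 0.05 (17.9%, beside 12.0% of all genes). Vgf averaged 73.4 ± 3.90 FPKM in dupKi-hom and 57.0 ± 6.99 in ATXN3-KO (log2 difference 0.36, limma adjusted p = 0.0782), and Pcsk1n 239 ± 4.78 and 204.5 ± 4.41 FPKM (0.22, adjusted p = 0.0782). For both genes the 3 dupKi-hom libraries were above the 3 of ATXN3-KO. Without ATXN3-KO library 0, Vgf was called higher (0.46, adjusted p = 0.0257).

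**Figure D3:**
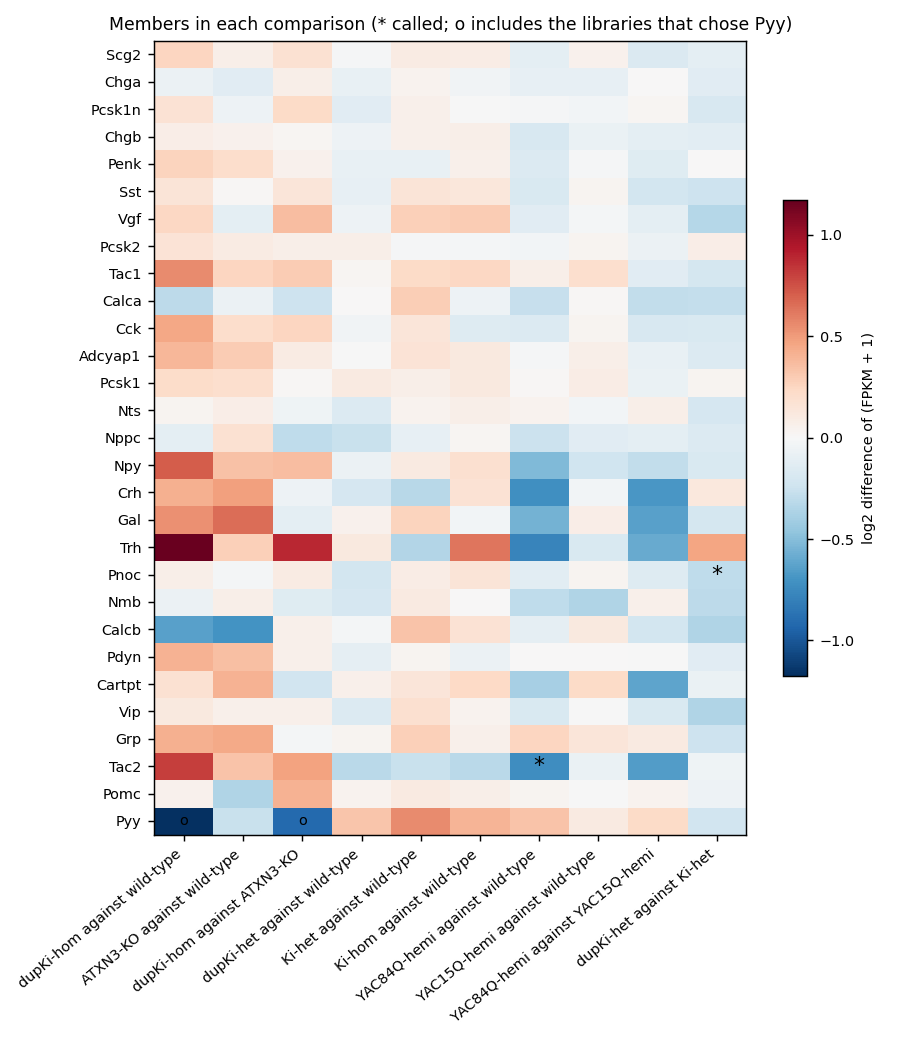
Log2 difference of (FPKM + 1) for the 29 members (rows) in 10 comparisons (columns), red higher and blue lower in the first-named genotype. Asterisks mark the 2 called members, Tac2 in YAC84Q-hemi against wild-type and Pnoc in dupKi-het against Ki-het. Circles mark Pyy in the comparisons of dupKi-hom, where its values chose it and carry no test.

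Among knock-ins of the second set, the opioid-family gene Pnoc, which encodes nociceptin, was lower in dupKi-het than in Ki-het. Its level ranged from 3.54 through a median of 3.93 to 4.32 FPKM in dupKi-het and was 4.32, 5.25, 4.59 and 6.26 FPKM in Ki-het. The 6 dupKi-het libraries lay below the 4 Ki-het libraries, although the highest dupKi-het and lowest Ki-het values nearly met. Pnoc was 1.23-fold lower (log2 difference -0.30, interval -0.46 to -0.14, limma adjusted p = 0.0134) and was the 1 member called of 29, where 10.7% of all genes were called (7.84% higher and 2.81% lower). Of 12 astrocyte genes, 9 were called lower in the same comparison, and their part in the Pnoc value was not tested. The call was lost without Ki-het library 3 (adjusted p = 0.0714), and without the libraries numbered 0 the difference was -0.37 (adjusted p = 0.00671).

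Wild-type libraries held Pnoc at 4.22 through a median of 4.69 to 5.48 FPKM, and 5 of 6 dupKi-het libraries were below all of them (log2 difference -0.21, interval -0.36 to -0.07, adjusted p = 0.110). That difference was called without the libraries numbered 0 (-0.25, adjusted p = 0.0406). Ki-het did not differ from wild-type past the threshold (0.08, adjusted p = 0.765). Ki-hom was at 4.91, 5.60, 5.13 and 5.71 FPKM, YAC84Q-hemi at 3.72, 4.44, 4.33 and 4.60, and YAC15Q-hemi at 4.36, 5.32, 4.87 and 4.86 FPKM, and in the first set Pnoc was at 6.33, 6.24 and 7.08 FPKM in wild-type, 6.01, 6.92 and 6.37 in ATXN3-KO and 7.06, 6.63 and 7.09 in dupKi-hom.

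Other members were lower in dupKi-het than in Ki-het without passing the test. Calcb was below the 4 Ki-het libraries in 6 of 6 dupKi-het libraries (log2 difference -0.36, limma adjusted p = 0.0677) and Vgf in 5 of 6 (-0.34, adjusted p = 0.0924). With a term for the libraries numbered 0 in the fit, 6 members were called lower in this comparison, Pnoc, Calcb, Vgf, Chga, Chgb and Sst, with log2 differences of -0.18 to -0.36. With that term 3712 of all 14802 genes were called, counted in both directions, which is not a matched background for members all called lower. In the fit with genotype alone, 2.81% of all genes were called lower and 7.84% higher. The term was chosen after the data were seen.

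Against wild-type, 0 of 29 members were called in dupKi-het, 0 in Ki-het and 0 in Ki-hom. Of all genes, limma called 2.53% in dupKi-het (1.16% higher and 1.37% lower), 0.115% in Ki-het (0.0135% and 0.101%) and 0.601% in Ki-hom (0.142% and 0.459%). At an unadjusted p under 0.05 there were 3 members lower in dupKi-het, 4 higher in Ki-het and 2 higher in Ki-hom. In either direction these are 10.3%, 13.8% and 6.9% of the members, beside 12.7%, 10.6% and 13.0% of all genes. In the members' own direction, 747 of all 14802 genes were lower in dupKi-het, 403 higher in Ki-het and 565 higher in Ki-hom. Members lay above wild-type in 10 of 29 cases in dupKi-het, 23 of 29 in Ki-het and 21 of 29 in Ki-hom, and all tested genes in 52.6%, 42.8% and 41.6%. Nppc, which encodes C-type natriuretic peptide, averaged 7.79 ± 1.52 FPKM in dupKi-het and 9.45 ± 0.967 in wild-type (log2 difference -0.26, limma adjusted p = 0.294). Vgf averaged 82.4 ± 8.80 FPKM in Ki-het and 83.6 ± 7.05 in Ki-hom beside 68.9 ± 15.1 in wild-type (adjusted p = 0.448 and 0.307). These comparisons share the 6 wild-type libraries.

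In mice with the 84-glutamine transgene, Tac2, the gene of the tachykinin neurokinin B, was lower than in wild-type. It was at 0.611, 1.18, 0.258 and 1.04 FPKM in YAC84Q-hemi, and at 1.49 through a median of 1.83 to 2.25 FPKM in wild-type. The 4 transgenic libraries were below the 6 wild-type libraries, and the log2(FPKM + 1) difference was -0.73 (interval -1.07 to -0.40, limma adjusted p = 0.0374). That scale understates the change of a gene near 1 FPKM: the means were 0.773 ± 0.420 and 1.89 ± 0.287 FPKM, a ratio of 0.409, and with a pseudocount of 0.1 the difference was -1.34. Tac2 was the 1 member called of 29, where 0.527% of all genes were called (0.365% higher and 0.162% lower). The call rests on few libraries: it was lost without YAC84Q-hemi library 2 (-0.58, adjusted p = 0.234) or library 0 (0.137), without wild-type library 1, 2, 3, 4 or 5 (0.0611 to 0.0782) and without the libraries numbered 0 (-0.74, adjusted p = 0.0771). It was also lost with only the compared genotypes in the fit (0.139) and with no filter on low values (0.0625). Tac2 was called in 8 of 19 refits, among them the fit with a term for the libraries numbered 0 (limma adjusted p = 0.0208).

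The other genotypes gave no Tac2 call, but each model of the second set averaged below wild-type. Mean Tac2 was 1.89 FPKM in wild-type, 1.77 in YAC15Q-hemi, 1.44 in Ki-het, 1.36 in Ki-hom and 1.34 in dupKi-het. Tac2 was at 2.47, 1.64, 1.79 and 1.17 FPKM in YAC15Q-hemi, and YAC84Q-hemi lay below it in the fit by -0.66 (adjusted p = 0.156). Ki-het was at 1.33, 1.00, 1.39 and 2.02 FPKM, Ki-hom at 0.931, 1.90, 1.74 and 0.886, and dupKi-het at 0.754 through a median of 1.47 to 1.71 FPKM. In the first set it was at 0.901, 1.46 and 1.20 FPKM in wild-type, 1.49, 4.80 and 0.428 in ATXN3-KO and 1.63, 4.90 and 2.58 in dupKi-hom.

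**Figure D4:**
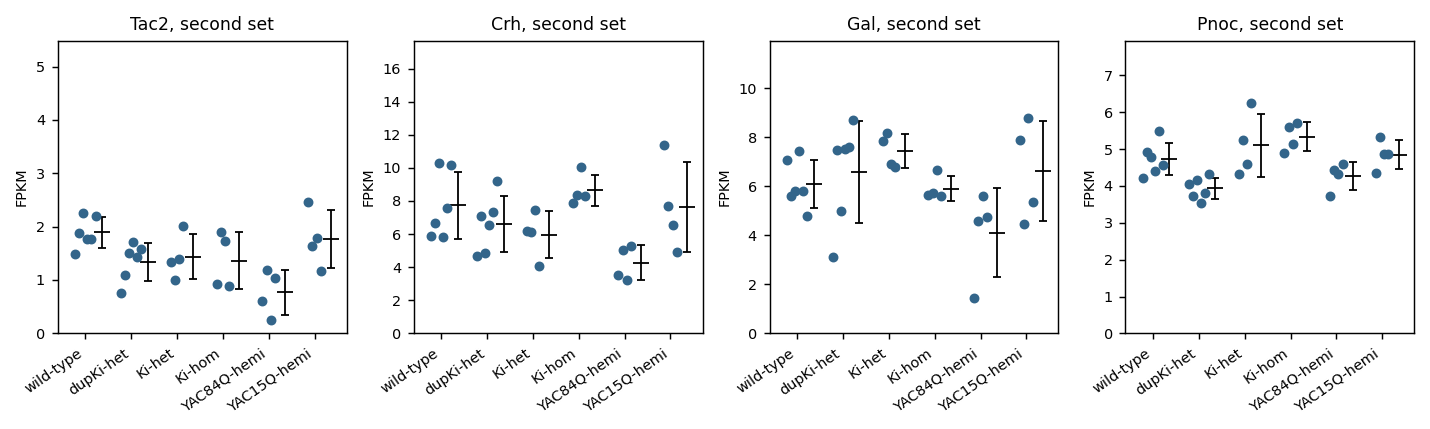
FPKM of Tac2, Crh, Gal and Pnoc in each library of the second set (dots), with the mean and SD of each genotype. Tac2 and Crh in the 4 YAC84Q-hemi libraries lie below the 6 wild-type libraries, and Pnoc in the 6 dupKi-het libraries lies below the 4 Ki-het libraries.

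Crh was lower than the 6 wild-type libraries in 4 of 4 YAC84Q-hemi libraries, at 3.55, 5.05, 3.22 and 5.29 FPKM beside 5.84 to 10.3 FPKM, but did not pass the test (log2 difference -0.72, interval -1.12 to -0.31, limma adjusted p = 0.144). Gal, at 1.46, 4.59, 5.62 and 4.76 FPKM, averaged 4.11 ± 1.82 beside 6.09 ± 0.980 in wild-type (-0.56, adjusted p = 0.523). Cartpt, at 0.839, 3.13, 2.27 and 2.17 FPKM, averaged 2.10 ± 0.947 beside 2.93 ± 0.392 FPKM (-0.39, adjusted p = 0.715). For Gal and Cartpt the lowest value was library 0, and without the libraries numbered 0 the difference was -0.20 for Gal (adjusted p = 0.743) and -0.17 for Cartpt (0.766).

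Over the 29 members, 7 had a difference above 0 in YAC84Q-hemi (24.1%, beside 49.1% of all genes), and the median was -0.14. The summed FPKM of the 16 brainstem regional genes was 139, 147, 132 and 153.5 in YAC84Q-hemi and 162 to 194 in wild-type, with no overlap. Hoxb2 was among the 16 and was listed at 0 throughout this set. Of the 14 such genes tested in this set the noradrenergic gene Dbh was called lower (7.91 ± 2.99 against 13.1 ± 2.65 FPKM, limma adjusted p = 0.0469). So were 6 of 13 oligodendrocyte genes, where 0.162% of all genes were called lower. The summed FPKM of the 13 caudal hindbrain Hox genes was 19.3, 31.4, 18.7 and 19.4 in YAC84Q-hemi. It overlapped wild-type, at 18.5 to 36.7. In YAC84Q-hemi this sum had the same order over libraries as Tac2, which was not so in dupKi-hom of the first set. The part of all these genes in the Tac2 and Crh values was not tested. In YAC15Q-hemi 0 of 29 members were called against wild-type (0.00676% of all genes) and 0 at an unadjusted p under 0.05. Between the 2 transgenes 0 of 29 were called (0.263% of all genes, 0.209% higher and 0.054% lower). At an unadjusted p under 0.05, 4 members were lower in YAC84Q-hemi (13.8%), among them Cartpt (-0.62, adjusted p = 0.405) and Crh (-0.68, adjusted p = 0.295). Of all genes 6.01% passed that cut in either direction, and 341 of 14802 were lower.

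Of 34 receptor genes of the peptides tested, 1 was called lower in dupKi-het against wild-type, where 2.53% of all genes were called. It was Ntsr2, a neurotensin receptor gene known from astrocytes as well as neurons. It averaged 37.2 ± 2.25 FPKM (n = 6) in dupKi-het and 54.2 ± 4.95 (n = 6) in wild-type, a 1.44-fold difference (log2 difference -0.53, limma adjusted p = 4.38e-06), and 6 of 6 libraries were below wild-type. Of the 12 astrocyte genes, 8 were called lower in the same comparison, and their part in the Ntsr2 value was not tested. Neurotensin itself, Nts, was not called.

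Against Ki-het, 2 receptor genes were higher and 3 lower of 34, where 7.84% of all genes were higher and 2.81% lower. Ntsr2 was again lower (log2 difference -0.57, adjusted p = 1.89e-05), as was Crhr1, a receptor gene for corticotropin-releasing hormone (6.72 ± 0.217 against 8.47 ± 1.38 FPKM, adjusted p = 0.0257). The mu opioid receptor gene Oprm1 (0.39, adjusted p = 0.0241) and the delta receptor gene Oprd1 (0.29, adjusted p = 0.0402) were higher. Oprm1 was not called without the libraries numbered 0 (0.32, adjusted p = 0.113) and was called in 6 of 10 fits that each left out 1 library. No receptor gene was called in the other 8 comparisons.

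Among 23 genes of peptide processing and dense-core granules, Cpe, the carboxypeptidase that trims cleaved peptides, was lower in dupKi-het than in wild-type. Cpe was the 1 called of these 23, where 2.53% of all genes were called (1.37% lower). In the same comparison 8 of 12 astrocyte genes were called lower, and their part in the Cpe value was not tested. Cpe averaged 572 ± 37.0 FPKM in dupKi-het and 688 ± 42.3 in wild-type (1.20-fold, limma adjusted p = 0.00753), with 6 of 6 libraries below wild-type, and the call was lost under quantile normalization (adjusted p = 0.157) and without the libraries above 1000 FPKM of Ttr (0.0532). Against Ki-het, Cpe (1.25-fold) and the vesicular monoamine transporter gene Slc18a2 (12.1 ± 1.29 against 18.9 ± 4.60 FPKM, adjusted p = 0.00661) were lower and 3 genes were higher of 23 (10.7% of all genes called), among them Stxbp5 (adjusted p = 0.00582) and Sytl5 (0.0224), which encode regulators of exocytosis. Slc18a2 loads noradrenaline and serotonin, and Dbh was also lower there (7.79 ± 0.765 against 14.7 ± 2.83 FPKM). Scg5, which encodes the Pcsk2 chaperone 7B2, was higher in dupKi-hom than in ATXN3-KO (182 ± 5.65 against 149 ± 4.22 FPKM, 1.22-fold, adjusted p = 0.0465), a call lost without any 1 of the 6 libraries (0.0766 to 0.179). Scg5 was the 1 called of 22 such genes there, where 1.24% of all genes were called (0.555% higher).

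Of 15 genes for enzymes that degrade peptides, Ide (insulin-degrading enzyme) was lower in YAC84Q-hemi, at 14.4 ± 0.760 against 22.0 ± 3.32 FPKM in wild-type (1.48-fold, limma adjusted p = 0.0405). It was called in 1 of 10 fits that each left out 1 library. Ide was the 1 called of the 15 there, where 0.162% of all genes were called lower. The aminopeptidase genes Enpep (1.33-fold, adjusted p = 0.00182) and Lnpep (1.61-fold, adjusted p = 0.00218) were higher in dupKi-het than in Ki-het, as were 7.84% of all genes. Of 34 further neuropeptide precursors in the table, 11 passed the expression filter in the second set and 10 in the first, and 0 were called in any comparison.

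In every genotype of the second set the library numbered 0 was low in granule genes. Chgb was at 97.0, 87.1, 108, 107, 81.6 and 89.6 FPKM in the libraries numbered 0 of wild-type, dupKi-het, Ki-het, Ki-hom, YAC84Q-hemi and YAC15Q-hemi, and at 138 to 178 FPKM in the 22 others. Chga was at 117, 115, 126, 122, 106 and 108 FPKM and at 153 to 196 in the others. For both genes the groups of libraries did not overlap, and library 0 was the lowest of its genotype in 6 of 6 genotypes.

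Sst was at 79.8, 63.3, 89.2, 95.8, 61.3 and 85.7 FPKM in the libraries numbered 0 and at 87.8 to 146 in the others. Penk was at 93.0, 64.7, 96.6, 113, 75.3 and 95.8 FPKM beside 102 to 139, Scg2 at 171, 144, 190, 191, 146 and 177 beside 187 to 242, and Pcsk1n at 136, 120, 143, 142, 143 and 137 beside 123 to 179 FPKM. Library 0 was lowest in 6 of 6 genotypes for Sst and Scg2, in 5 of 6 for Penk and in 4 of 6 for Pcsk1n.

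With genotype in the fit, the libraries numbered 0 were lower by 0.71 for Chgb, 0.61 for Chga, 0.58 for Sst, 0.43 for Penk and 0.34 for Scg2 on the log2 scale (limma adjusted p = 3.13e-14 for Chgb and 2.48e-05 for Penk). Of the 29 members 16 were lower and 1 was higher, Adcyap1, where 55.5% of all genes were called (41.7% lower and 13.7% higher), so no part of this is shown to be particular to peptide genes. Pcsk2 and Pyy were not called (log2 differences of 0.01 and 0.16). What sets these libraries apart is not given in the labels and was not tested.

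**Figure D5:**
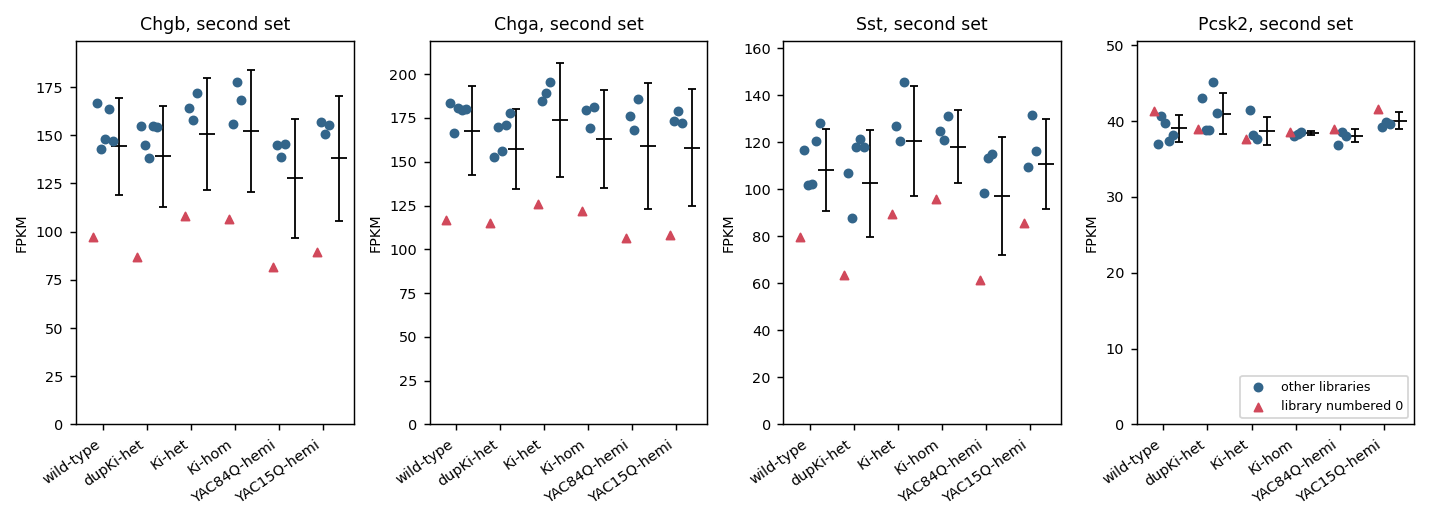
FPKM of Chgb, Chga, Sst and Pcsk2 in the 28 libraries of the second set, with red triangles for the library numbered 0 of each genotype, blue dots for the others, and the mean and SD of each genotype. The triangles lie below the dots for Chgb (81.6 to 108 FPKM) and Chga (106 to 126 FPKM) and among them for Pcsk2.

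Pairs of members ranged widely in how they varied between libraries. After subtraction of genotype means, Chga and Chgb had the highest Pearson r of member pairs in the second set, 0.97 over 28 libraries, and 0.28 without the libraries numbered 0. In the first set the highest was Cartpt with Gal, 0.96 over 9 libraries, and the lowest was Calca with Tac2, -0.87. The points share libraries and scaling, and the pairs are given as a description.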

How the data were processed

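RNA of the pons was sequenced from mice of each genotype analysed. The labels describe 59 samples, of which 22 had no column in the table used and were not analysed here. Among these are 3 wild-type and 3 dupKi-hom samples of a separate group named DCN, and 2 samples assigned to no genotype. Of the 10 other dupKi-hom samples, 3 had a column. Of the 16 other wild-type samples, 3 entered the first set and 6 the second. For 6 wild-type columns the name matched 2 samples each, so these entered by genotype only. The deposited values are FPKM per gene and library, as the authors computed them; per the submitters' processing notes, the build was mm8 and the tools were Trimmomatic, FastQC, CASAVA 1.8.2, Cuffdiff, TopHat2 and DESeq, with no role or order given. Strand handling is not given in the sources used here. Depth is unknown, so precision rests on the spread between libraries, and nothing says which libraries share a litter or preparation. By the steps of low values, other libraries had 1.19 to 2.21 times the depth of wild-type library 1 in the first set, and 0.643 to 1.20 times in the second. There the libraries numbered 0 gave no readable ratio to wild-type library 1. Against wild-type library 0, the others numbered 0 read at 0.727 to 1.26 times its depth, and libraries of other numbers gave no readable ratio.

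A gene entered the fit of a set when 3 or more libraries reached 1 FPKM (14059 and 14802 genes), after leaving out 7 and 12 genes listed at 0 in a whole genotype beside clear values in another. Each set was fitted with limma 3.58.1 (R 4.3.3, lmFit and eBayes with a trend, 1 mean per genotype) on log2(FPKM + 1), which understates changes of low genes, with two-sided tests, p-values adjusted by Benjamini-Hochberg across the whole set of genes and calls at 0.05. The fit was run on simulated data whose noise was independent between libraries, so these held no shared deviation of the libraries numbered 0. Changes were set only in genes of higher mean, so that run does not cover genes near 1 FPKM such as Pyy and Tac2. Members and lists were chosen with earlier results of these data known. Values per library are given for Pyy, the called members and the 6 with the highest mean in the second set; of each list, up to 4 called genes per comparison are named. Further genes (Crh, Gal, Cartpt, Calcb, Vgf and others) were named after their values were seen. Symbols that a spreadsheet turned into dates (27 lines) were left out, and 132 lines sharing a symbol with another were added to it. Promoter sequences are from RefSeq (GRCm38.p6), as are the chromosome and neighbours of Pyy, on another build than the table's.

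Alternatives were a pseudocount of 0.1, no filter, upper-quartile scaling, quantile normalization, only the compared genotypes, the library number as a block, leaving out libraries above 1000 FPKM of Ttr, and leaving out each library. Leaving out, or fitting a term for, the libraries numbered 0 was added after the data were seen.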

Additional observations from a re-analysis of the deposited data

Results flagged for a closer look

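Of 174 groups of 4 to 6 libraries examined for the 29 members of the second set, 16 had a highest or lowest library far from the rest by Dixon's criterion, which chance alone meets in about 1 in 20 groups, and 9 of the 16 were the library numbered 0. Low values in library 0 were Chga at 117 FPKM in wild-type, 126 in Ki-het and 108 in YAC15Q-hemi, Chgb at 97.0 in wild-type, 87.1 in dupKi-het, 81.6 in YAC84Q-hemi and 89.6 in YAC15Q-hemi, Scg2 at 144 in dupKi-het and Cck at 7.53 FPKM in YAC84Q-hemi. High values elsewhere were Calcb at 5.91 FPKM in Ki-het library 2, whose nearest neighbour was at 4.20, and Gal at 6.67 in Ki-hom library 2. Wild-type library 1 was high in Tac1 (31.6), Vip, the gene of vasoactive intestinal peptide (4.02) and Pcsk1 (10.9). Adcyap1 at 14.5 in dupKi-het library 1 and Pcsk2 at 41.5 FPKM in Ki-het library 1 were the others.

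Pnoc differed directly between the knock-ins with a duplicated and a single repeat, dupKi-het against Ki-het, by -0.30 on the log2 scale.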

How the results depend on the processing

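No named difference changed direction in 588 refits of 34 named differences, of which 522 kept their side of the threshold. Member counts equalled the reported count in 139 of 172 refits. Every reported count was 0 or 1, and most of these matches were counts of 0. Leaving out 1 library gave 0 to 3 called members for dupKi-hom against wild-type, 0 to 1 for dupKi-hom against ATXN3-KO, 0 to 1 for YAC84Q-hemi against wild-type and 0 to 2 for dupKi-het against Ki-het, and 0 for the other 6 comparisons. The count for dupKi-hom against wild-type was 1 (Scg2) under upper-quartile scaling (adjusted p = 0.0399) and the block, and for dupKi-hom against ATXN3-KO 1 (Vgf) under the block. For dupKi-het against wild-type it was 1 (Pnoc) under upper-quartile scaling, quantile normalization, the block, and with the libraries numbered 0 left out or fitted. For YAC84Q-hemi against wild-type it was 0 with no filter (Tac2 adjusted p = 0.0625), with only the compared genotypes (0.139), under the block (0.0667) and without the libraries numbered 0. For dupKi-het against Ki-het it was 2 under upper-quartile scaling, quantile normalization, without the libraries of high Ttr and without those numbered 0, 6 with a term for these, 8 under the block and 0 with only the compared genotypes (Pnoc adjusted p = 0.0749).

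The library number was not taken to pair the samples, since not every same-numbered pair of deviations correlated above 0.1: correlations in the second set were -0.25 to 0.32 for the numbers above 0, while the libraries numbered 0 deviated together (0.16 to 0.38), and 13 of 28 libraries correlated best with their own number (2 of 9 in the first set). With the number as a replicate block, Pyy in Ki-het against wild-type was called (log2 difference 0.68, adjusted p = 0.0445) and the count there was 1. The block raised the calls over all genes from 1577 to 4240 for dupKi-het against Ki-het and from 375 to 900 for dupKi-het against wild-type, and the term for the libraries numbered 0 raised them to 3712 and 813. With the block, calls over all genes were also 358 in place of 17 for Ki-het, 711 in place of 89 for Ki-hom and 182 in place of 78 for YAC84Q-hemi against wild-type, 138 in place of 39 between the transgenes and 263 in place of 175 for dupKi-hom against ATXN3-KO. With only the compared genotypes they were 227 for dupKi-het, 6 for Ki-hom and 3 for YAC84Q-hemi against wild-type, 3 between the transgenes and 693 for dupKi-het against Ki-het. With no filter, calls were 144 in place of 230 for dupKi-hom against wild-type, 106 for dupKi-hom against ATXN3-KO, 10 for Ki-het and 44 for Ki-hom against wild-type. FPKM without read counts leave the counting error of genes near 1 FPKM, such as Pyy, Tac2 and Pomc, unknown, and a change of the size seen in those genes may rest on few fragments.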
